A study of Homo sapiens with 17 samples.

Results

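The subject here is the genomic neighbourhood of the genes for the 4 transcription factors that were expressed in the study, FOXA1, FOXA2, FOXA3 and SOX2. A peak was included when its summit lay within 200 kb of the RefSeq span of 1 of these genes, which held for 120 of the 265457 peaks in 10 peak lists. Of these 120 peaks, 60 lay around SOX2, 27 around FOXA1, 22 around FOXA2 and 11 around FOXA3. The cells were U2OS, an osteosarcoma line of human origin, in stable derivatives that carry a Tet-on (doxycycline-induced) construct for a Flag-tagged factor, and binding was measured by ChIP-seq with a Flag antibody. The constructs encode full-length FOXA1, FOXA2 or FOXA3 (Tet-on FOXA1, Tet-on FOXA2, Tet-on FOXA3), the same proteins with the CTD deleted (Tet-on FOXA1dCTD, Tet-on FOXA2dCTD, Tet-on FOXA3dCTD), full-length SOX2 (Tet-on SOX2), or SOX2 fused to the CTD of FOXA2 (Tet-on SOX2FOXA2CTD). All 8 groups received doxycycline at 500 ng/ml for 4 days and have 2 biological replicates each, and an input sample, labelled with no construct or treatment, completes the 17 samples. Each group has 1 combined list made from both replicates, and SOX2 and the fusion also have a list of the first replicate alone. A difference between groups is thus a difference between single lists, with no replicate check. Whether a line is 1 clone is not given in the sources used here, and a factor driven by Tet-on is not under its native control.

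FOXA1, FOXA2 and FOXA3 are forkhead proteins, called pioneer factors because they can bind their sites on nucleosomes, and they open chromatin during the development of endoderm, liver and other organs. SOX2 is a pioneer factor with an HMG-box DNA-binding domain that maintains pluripotent and neural progenitor cells. Genes of such factors are often bound by their own product or by a related factor in the cells that normally express them, which is called auto- or cross-regulation. In the present lines, peaks over the gene and peaks beside it have to be read apart. Where a construct holds the human coding sequence, reads from an integrated copy can be placed on the native gene. The species and extent of the construct sequences are not given in the sources used here. Whether a read came from the construct or from the native gene cannot be told apart in peak lists. A peak was called over the gene when its interval overlapped the gene by at least 1 bp, and flanking otherwise.

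On hg38, the build named in the submitters' processing notes, FOXA1 (gene ID 3169) spans 37589552 to 37595249 on chromosome 14. FOXA2 (3170) spans 22580998 to 22585490 on chromosome 20, FOXA3 (3171) spans 45864326 to 45873797 on chromosome 19, and SOX2 (6657) spans 181711925 to 181714436 on chromosome 3. They are short genes of 5698, 4493, 9472 and 2512 bp, while the median protein-coding gene spans 24170 bp. RefSeq promoters (GRCh38.p14) were matched for 3 of these genes, and the 250 bases before the start were searched on both strands for the forkhead cores TGTTTAC and TATTTAC and for the SOX cores ACAATG and ACAAAG. None of the 10 lists had a peak in the windows of FOXA1, FOXA3 and SOX2. Of 35116 promoters, 5.27% held a forkhead core and 21.2% a SOX core. The windows of FOXA1 and SOX2 are shown because peaks lay inside these genes but not in front of them. The last window is that of LOC105372564, a long non-coding RNA gene near FOXA2, and is shown because 195 of its 250 bases lay under a peak of the CTD-deleted FOXA2 list. Each is written 5′ to 3′ on the strand of its gene, with SOX cores in capitals, CTTTGT being ACAAAG on the opposite strand.
FOXA1 (minus strand, chr14:37595250-37595499): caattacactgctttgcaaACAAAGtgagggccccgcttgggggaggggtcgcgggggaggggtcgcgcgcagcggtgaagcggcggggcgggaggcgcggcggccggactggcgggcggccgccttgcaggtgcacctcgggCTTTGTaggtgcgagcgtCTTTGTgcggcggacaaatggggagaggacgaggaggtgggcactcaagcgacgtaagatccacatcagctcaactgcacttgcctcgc
SOX2 (plus strand, chr3:181711675-181711924): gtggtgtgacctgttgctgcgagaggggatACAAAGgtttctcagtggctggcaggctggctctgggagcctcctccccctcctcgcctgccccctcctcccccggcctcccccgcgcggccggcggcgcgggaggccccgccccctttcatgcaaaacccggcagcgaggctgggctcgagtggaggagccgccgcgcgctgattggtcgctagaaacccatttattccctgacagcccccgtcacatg
LOC105372564 (minus strand, chr20:22524191-22524440): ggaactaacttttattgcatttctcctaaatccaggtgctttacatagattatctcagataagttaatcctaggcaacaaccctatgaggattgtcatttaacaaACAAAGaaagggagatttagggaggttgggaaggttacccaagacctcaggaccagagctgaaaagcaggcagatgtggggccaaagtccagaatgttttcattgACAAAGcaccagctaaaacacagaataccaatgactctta
The FOXA1 window held 3 SOX cores, the SOX2 window held 1 and the LOC105372564 window held 2, all of them ACAAAG. The FOXA3 window held 0. A forkhead core was found in 0 of these 4 windows, which says only that these letters are not in them.

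The combined lists differ in length and in stringency, and both bear on how many peaks a gene can collect. They hold 37532 peaks for full-length and 50539 for CTD-deleted FOXA1, 45076 and 53415 for FOXA2, 6130 and 6813 for FOXA3, 1375 for SOX2 and 7895 for the fusion. Their largest irreproducible discovery rate (IDR, a measure of disagreement between replicates) ranges from 0.01 in the CTD-deleted FOXA3 list to 0.912 in the fusion list. In full-length FOXA3, 5012 peaks, or 81.8% of the list, are also present in the CTD-deleted list with every value the same. Read depth is unknown. The strength of a peak is the lower of its −log10 p values in both replicates, as the authors gave them, and it is set beside the other peaks of the same list, since p-values of different lists rest on different depths.

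A peak over the SOX2 gene was present in both lists of lines that carry a SOX2 coding sequence and in 0 of the 6 FOXA lists. SOX2 is a gene with a single exon. In the SOX2 list the peak spanned 181712300 to 181713303, with −log10 p values of 3.62 and 11.3 in the replicates and an IDR of 0.0178. In the fusion list it spanned 181712345 to 181713356, with 3.62 and 13.9 and an IDR of 0.0759. At an IDR of at most 0.05 only the SOX2 list keeps the peak, and at 0.01 neither does. The intervals share 959 bp and begin 375 bp inside the gene or further, so both lie within the transcribed part and end at least 1080 bp before its end. The first-replicate lists held a peak at the same place, at 181712372 to 181713231 for SOX2 and 181712401 to 181713301 for the fusion. Each had a −log10 p of 3.62 there and a fold enrichment over local background of 3.20 and 3.23, as the authors gave them. Adjusted over the genome by the authors, their −log10 q was 0 and 0.442.

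**Figure D1:**
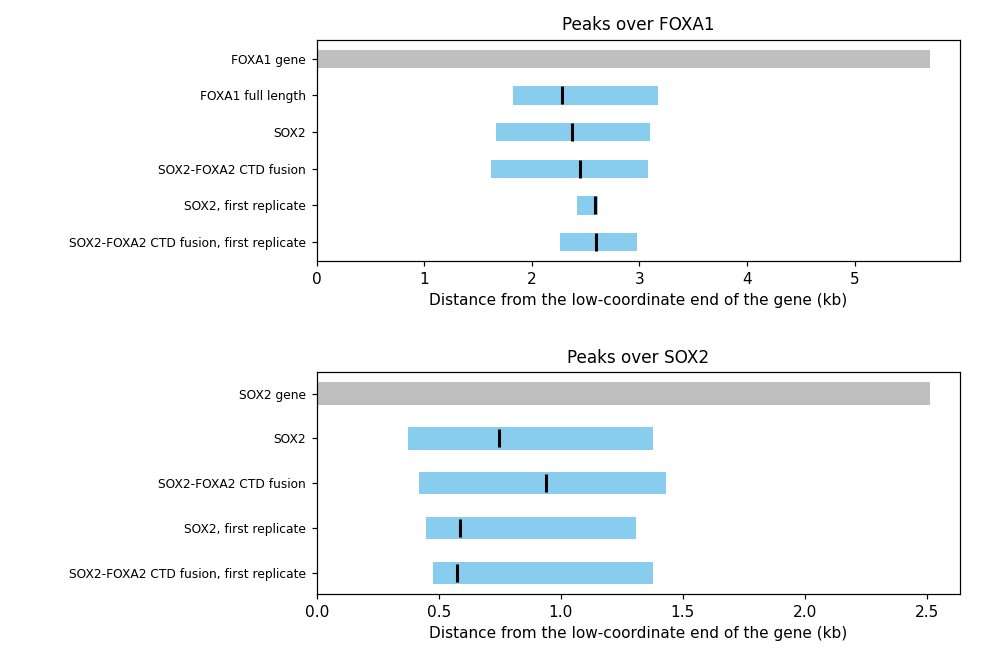
Extent of the peaks (blue bars) and their summits (black marks) over FOXA1 and SOX2, as distance from the low-coordinate end of the gene in kb, with the gene in grey. FOXA1 is transcribed from right to left and SOX2 from left to right, and all peaks lie inside the genes, with summits within 317 bp of each other for FOXA1 and within 363 bp for SOX2.

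The FOXA1 gene also carried a peak, and it did so in lists of lines without a FOXA1 construct. The full-length FOXA1 list had it at 37591377 to 37592724, with −log10 p values of 7.35 and 5.53 and an IDR of 0.0398. The SOX2 list had it at 37591218 to 37592646, with 3.62 and 18.2 and an IDR of 0.00933. The fusion list had it at 37591167 to 37592630, with 5.86 and 38.6 and an IDR of 0.00107. The 3 intervals share 1254 bp, and their summits lie within 169 bp of each other. The CTD-deleted FOXA1 list, the other line with a FOXA1 construct, had no peak over the gene, nor did the FOXA2 and FOXA3 lists. By strength, the lower value, it was above 78.0% of the peaks in the full-length FOXA1 list, 92.8% in the fusion list and 15.3% in the SOX2 list. In the column of the higher value it ranked 3 of 7895 in the fusion list and 62 of 1375 in the SOX2 list.

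For these peaks the replicates of the SOX2 and fusion lines were far apart, and those of the FOXA1 line were not. The lower value of each SOX2 or fusion peak over SOX2 or FOXA1 equals the −log10 p of the peak in the first-replicate list to within 0.001. Such equality was not general. The column that holds these lower values equalled a first-replicate value at 22 of 273 SOX2 peaks and 344 of 4358 fusion peaks. These were the combined peaks that overlap a first-replicate peak, 273 of 1375 in the SOX2 list and 4358 of 7895 in the fusion list. The other combined peaks overlapped none, and why was not tested. The other column did so at 0 of the same 273 and 0 of the same 4358. A value of 3.62 is shared by 298 peaks of the first-replicate SOX2 list. Only the former column thus matched, though at few peaks, and no label names the replicate of either. The higher values, from 11.3 to 38.6, stand in the other column, which carries no replicate number. Medians of the columns over the whole list were 7.53 and 6.17 in the SOX2 list and 3.20 and 3.29 in the fusion list. Medians do not show how far the columns differ within single peaks, and that gap was not counted over the lists. The median of the lower value per peak was 4.99 in the SOX2 list and 2.98 in the fusion list, below both column medians. The first-replicate lists placed the FOXA1 peak at 37591968 to 37592165 for SOX2 and at 37591812 to 37592531 for the fusion, with fold enrichments of 3.06 and 4.14 and a −log10 q of 0 and 2.10. Their peaks over the gene were thus narrower than the combined ones. Where the reads over FOXA1 in the SOX2 and fusion lines came from was not tested.

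**Figure D2:**
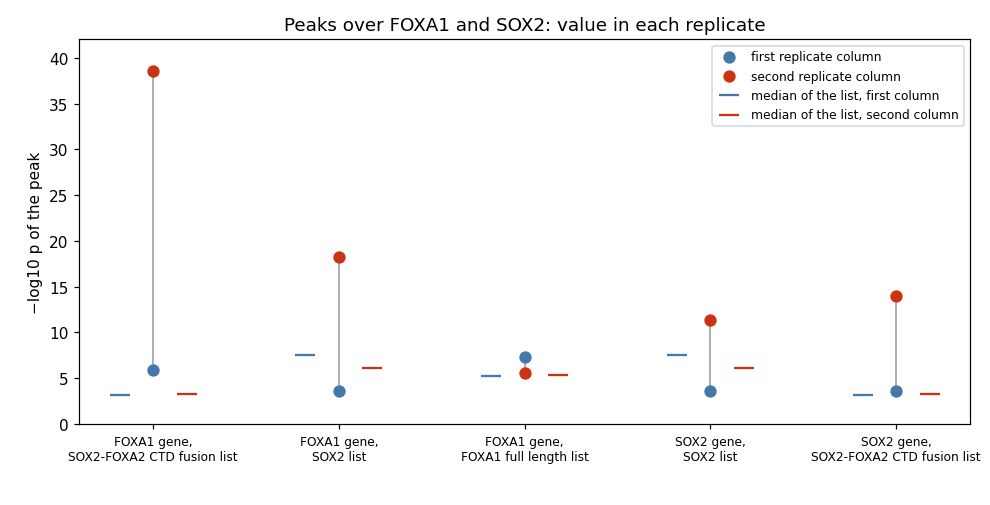
−log10 p, as the authors gave it, in both replicate columns (points) for the 5 peaks over FOXA1 or SOX2 in the combined lists, with the median of each column over the whole list (dashes). The second column reaches 11.3 to 38.6 in the SOX2 and fusion lists, whereas both columns of the full-length FOXA1 list lie between 5.53 and 7.35.

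Peaks over genes this short were uncommon in the SOX2 list. Over all 19974 protein-coding genes, 0.34% had a SOX2 peak over the gene and 10.7% had a fusion peak. Over the 5658 protein-coding genes of up to 10 kb these shares were 0.124% and 3.22%. FOXA1 and SOX2 were 2 of the 7 genes that make up this 0.124%. The others, named after their values were seen, were VAMP1, RNASE10, ADRM1, MRPL40 and YDJC. Their −log10 p values in the first and second column were 2.46 and 7.62 for VAMP1 and 2.96 and 15.0 for RNASE10. They were 5.76 and 4.08 for ADRM1, 3.11 and 6.95 for MRPL40, and 5.76 and 3.96 for YDJC. A wide gap between columns was thus not limited to FOXA1 and SOX2. In the first-replicate lists 13.9% of all protein-coding genes had a SOX2 peak over the gene and 31.9% a fusion peak, or 1.03% and 7.09% of the short ones.

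Over FOXA2 and FOXA3, the number of combined lists with a peak was 0 of 8, and so it was in the lines that express these proteins. The fraction of protein-coding genes with a peak over the gene was 35.6% for full-length and 34.7% for CTD-deleted FOXA1, and 7.88% and 4.77% among genes of up to 10 kb. It was 38.7% and 38.8% for FOXA2, or 9.6% and 8.06% of the short genes. For FOXA3 it was 9.74% and 11.1%, or 1.03% and 1.15%. A gene of this size without a peak was therefore the usual case in every list. The first-replicate list of the fusion, whose construct carries the FOXA2 CTD, had a peak over FOXA2 at 22582504 to 22583195. Its −log10 p of 5.26 exceeded that of 85.97% of the list, and its −log10 q was 1.62, a q below 0.05. Its fold enrichment of 1.47 was among the lowest, with 4 of 42705 peaks lower and a median of 3.06. The peak of the same list over FOXA1 had a similar −log10 p of 5.86 with a fold of 4.14.

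**Figure D3:**
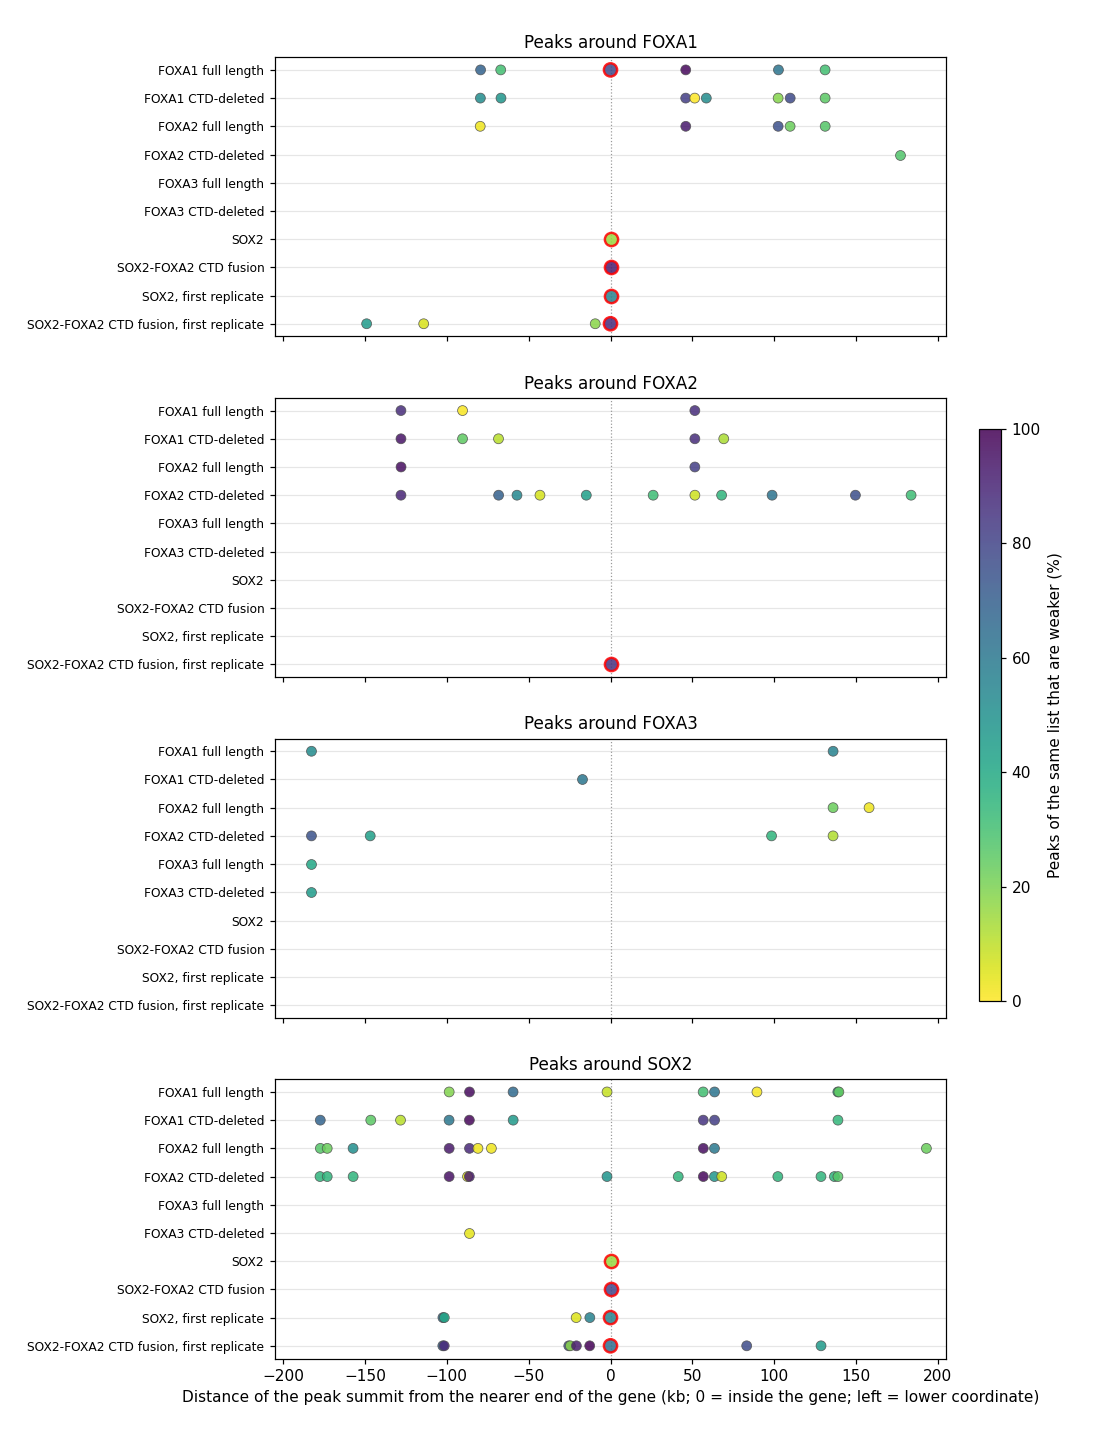
Every peak with a summit within 200 kb of the 4 genes, by list (rows) and by distance of the summit from the nearer end of the gene in kb. Colour gives the percentage of peaks of the same list that are weaker, and red outlines mark peaks over the gene. FOXA1 and FOXA2 lists fill the flanks of SOX2, while the combined SOX2 and fusion lists have peaks only over SOX2 and FOXA1.

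Around SOX2, the flanks were occupied by FOXA1 and FOXA2 and not by the combined SOX2 lists. SOX2 lies inside the span of SOX2-OT, a long non-coding RNA gene. Full-length FOXA1 had 9 flanking peaks, CTD-deleted FOXA1 9, full-length FOXA2 10, CTD-deleted FOXA2 15 and CTD-deleted FOXA3 1. Full-length FOXA3, SOX2 and the fusion had 0. Merged across lists, where peaks that overlap by 1 bp count as 1 site, there were 22 flanking sites. All 12 on the low-coordinate side had their summits in SOX2-OT, and the 10 on the other side lay in no annotated gene.

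The site found in most lists lay at 181625217 to 181626670, about 86.1 kb before the start of SOX2, with peaks in both FOXA1 lists, both FOXA2 lists and the CTD-deleted FOXA3 list. Its strength was 10.99 in full-length and 15.0 in CTD-deleted FOXA1, above 97.2% and 98.4% of the peaks of these lists. In the FOXA2 lists it was 4.15 at full length and 6.91 after deletion, above 88.99% and 92.4% of them. In the CTD-deleted FOXA3 list it was 5.36, above only 4.11%. The same site was thus among the strongest FOXA1 peaks and near the weak end of the CTD-deleted FOXA3 list, which is short and has the strictest limit.

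A site 56.6 kb past the gene, at 181770622 to 181771462, was strongest in the FOXA2 lists. Its strength of 11.1 in CTD-deleted and 6.32 in full-length FOXA2 exceeded 97.9% and 96.3% of the peaks. The CTD-deleted FOXA1 peak there had 7.49 (above 84.8%) and the full-length FOXA1 peak 3.48 (above 30.1%). Another site, at 181612888 to 181613674 and 98.6 kb before the start, had 8.41 in CTD-deleted and 5.08 in full-length FOXA2, 4.93 in CTD-deleted FOXA1 and 3.27 in full-length FOXA1. Read as percentages of their own lists, the first of these 3 sites stood higher in the FOXA1 lists and the others stood higher in the FOXA2 lists. A further site in the same 4 lists, at 181777682 to 181778996, was above 61.5% and 81.9% of the full-length and CTD-deleted FOXA1 peaks and above 59.9% and 47.3% of the FOXA2 peaks. The flanking site nearest to SOX2, at 181709342 to 181710283, lay 2.12 kb before its start. It appeared in full-length FOXA1 and CTD-deleted FOXA2, both with a strength of 2.96, above 8.73% and 48.4% of the peaks. On the other side the nearest site was at 181755507 to 181756382, 41.4 kb past the gene, in CTD-deleted FOXA2 alone.

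SOX2 peaks beside the SOX2 gene were seen in the first-replicate lists. SOX2 had 4 flanking peaks there and the fusion 8. All 4 SOX2 peaks overlapped a fusion peak, and 0 of them overlapped a peak of the 6 FOXA lists. They lay in SOX2-OT at 102, 102, 21.0 and 12.6 kb before the start of SOX2. The strongest, at 181609240 to 181609639, had a −log10 p of 4.00 and exceeded 66.4% of its list, and the fusion peak there had 4.07. The SOX2 peak nearest to the gene, singled out after its values were seen, lay at 181698990 to 181699422 and had a −log10 p of 3.62 and a fold enrichment of 3.20. Its fusion counterpart, at 181698928 to 181699620, had a −log10 p of 13.7 and a fold of 8.26, ranking 167 of 42705. A fusion peak 20.8 kb before the start ranked 2535 with a fold of 5.29, against 2.19 for SOX2. Of the 8 fusion peaks, 1 overlapped a FOXA peak, that of CTD-deleted FOXA2 about 129 kb past the gene. How often peaks of the whole first-replicate lists overlap a FOXA peak, or each other, was not counted. These overlaps are therefore a description of this locus only. None of the first-replicate flanking peaks had a counterpart in the combined SOX2 or fusion list. This was common over the whole lists. Only 273 SOX2 and 4358 fusion combined peaks overlapped the first-replicate lists, which hold 13977 and 42705 peaks. As −log10 q, the p-value adjusted by the authors over the genome, the 4 SOX2 peaks had at most 0.121. The fusion peaks had 8.49, 2.88 and 2.10 at the 3 strongest, which correspond to a q below 0.05, and at most 0.929 at the others.

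Around FOXA1, 9 flanking sites were found, 2 in MIPOL1 and 7 in TTC6, the genes on either side of FOXA1. Full-length FOXA1 had 5 flanking peaks, CTD-deleted FOXA1 8, full-length FOXA2 5 and CTD-deleted FOXA2 1, and the other 4 combined lists had 0. The strongest site lay in TTC6 at 37640901 to 37641614, 45.9 kb from FOXA1 on the side of its start. Its strength was 11.9 in full-length FOXA1, 6.95 in CTD-deleted FOXA1 and 5.03 in full-length FOXA2, which placed it above 97.8%, 81.9% and 93.1% of each list. The same 3 lists shared 3 other sites. At 37509299 to 37510430 in MIPOL1 the strength was 4.99, 4.44 and 1.59. At 37697288 to 37698146 in TTC6 it was 4.48, 3.23 and 3.02. At 37725913 to 37726672 in TTC6 it was 3.48, 3.53 and 1.74. The nearest site on the other side, at 37521941 to 37522925 in MIPOL1, was in both FOXA1 lists, with 3.48 at full length and 4.33 after deletion.

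The FOXA2 lists differed at FOXA1. All 5 flanking peaks of full-length FOXA2 overlapped a FOXA1 peak site, while the CTD-deleted list had a single peak, at 37772187 to 37772476, with a strength of 2.49 and found in no other list. Its count of 1 was matched or exceeded at 93.4% of protein-coding genes, and the count of 5 at 59.2%. The fusion's first-replicate list had 3 flanking peaks here, all on the low-coordinate side and the nearest 9.33 kb from FOXA1, and the strongest of them, at 37440334 to 37440822, had a −log10 p of 3.22. None overlapped a FOXA peak. How often peaks of the whole lists overlap in these ways was not counted.

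Around FOXA2, the CTD-deleted form of FOXA2 itself had the most peaks. It had 11 flanking peaks, against 2 for full-length FOXA2, 3 for full-length and 5 for CTD-deleted FOXA1 and 0 for FOXA3, SOX2 and the fusion. Of 13 flanking sites, 8 were in the CTD-deleted FOXA2 list alone and 1 in the CTD-deleted FOXA1 list alone. The CTD-deleted FOXA2 list is the longest, with 53415 peaks, and its share of such sites over the genome was not counted. Both peaks of full-length FOXA2 were at sites that all 4 FOXA1 and FOXA2 lists shared. One lay at 22451798 to 22453450 in LOC105372562, 128 kb away on the low-coordinate side. Its strength was 7.14 and 10.6 in full-length and CTD-deleted FOXA1 and 6.44 and 6.17 in the FOXA2 lists, above 87.8%, 94.6%, 96.4% and 89.6% of the peaks. The other lay at 22636582 to 22637217, 51.5 kb on the high-coordinate side, with 6.98, 7.96, 3.46 and 2.34.

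The sites of CTD-deleted FOXA2 alone lay between 14.8 and 184 kb from the gene. The nearest were at 22565981 to 22566406, 14.8 kb away in LINC00261, a long non-coding RNA gene beside FOXA2, and at 22611373 to 22611696, 26.1 kb away on the other side. Their strengths were 2.81 and 2.60, above 43.9% and 31.3% of the list. A pair of the other sites were singled out after their values were seen. The site over the promoter of LOC105372564 printed above, at 22523651 to 22524385, had 3.13 (above 53.9%), with the summit outside the printed window. A site in the same gene, at 22512349 to 22512938, had 3.83 and was shared with CTD-deleted FOXA1, where it had 2.87. The strongest of the 8 found only there, at 22734982 to 22735371, reached 4.33, above 75.9%. The 8 peaks thus ranged from above 6.29% to above 75.9% of their list.

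Around FOXA3, on the gene-dense chromosome 19, 6 flanking sites were found. CTD-deleted FOXA2 had 4 flanking peaks, full-length FOXA1 and full-length FOXA2 2 each, and CTD-deleted FOXA1 and both FOXA3 lists 1 each. The only FOXA3 peak lay at 45681269 to 45681905 in GIPR, the gene of an incretin receptor, 183 kb from FOXA3. Its strength of 7.45 is the same in both FOXA3 lists because it is 1 of the peaks they share with every value the same, so full-length FOXA3 has 0 peaks of its own around any of the 4 genes. The site was also in full-length FOXA1 with 4.10 and in CTD-deleted FOXA2 with 4.17. A site at 46009239 to 46010331 in CCDC61 was in full-length FOXA1 (4.35), full-length FOXA2 (1.72) and CTD-deleted FOXA2 (2.36). The nearest site, at 45846344 to 45846907, lay 17.7 kb away in SYMPK and was in CTD-deleted FOXA1 alone with 4.96. On the other side the nearest was at 45971957 to 45972505 in NOVA2, 98.4 kb away, in CTD-deleted FOXA2 alone with 2.80.

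**Figure D4:**
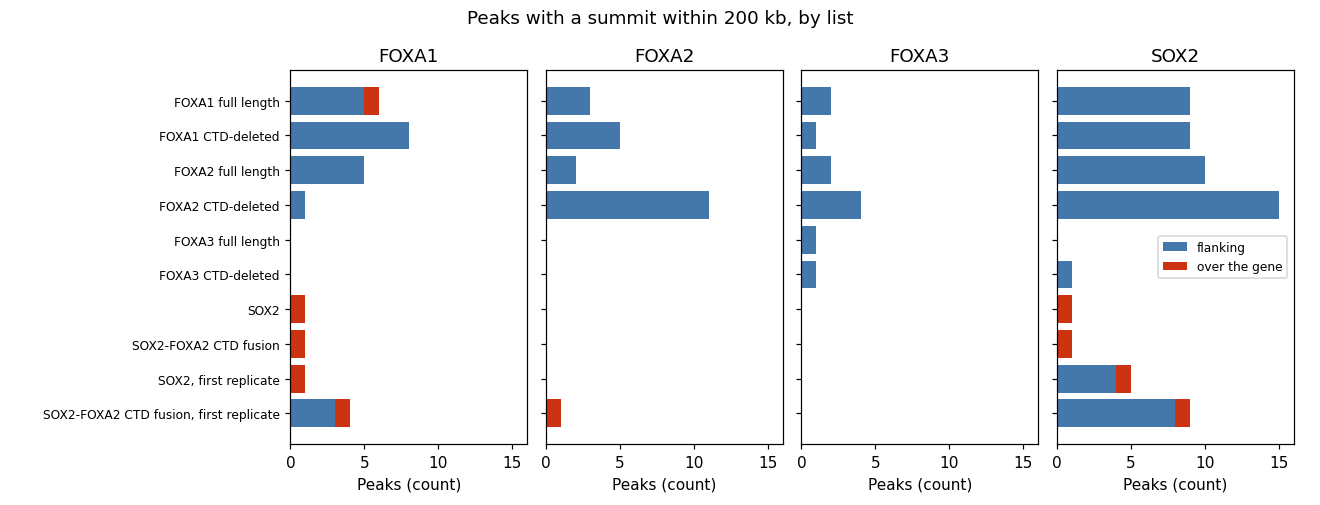
Number of peaks with a summit within 200 kb of each gene, by list, split into flanking peaks (blue) and peaks over the gene (red). CTD-deleted FOXA2 has the longest bars at FOXA2 (11) and SOX2 (15) and the count of 1 at FOXA1.

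These numbers were set beside those of all 19974 protein-coding genes. A peak within 200 kb was the rule for the long lists, at 91.7% of genes for full-length and 91.5% for CTD-deleted FOXA1, and 92.5% and 93.4% for FOXA2. It was found at 50.4% and 55.2% for FOXA3, 2.45% for SOX2 and 48.2% for the fusion, and at 56.4% and 88.7% in the first-replicate lists. Having a FOXA1 or FOXA2 peak in the flanks is therefore no feature of these 4 genes. The median protein-coding gene had 14 merged sites within 200 kb. SOX2 had 23, a number reached by 22.95% of genes, FOXA2 had 13 (55.3%), FOXA1 10 (66.0%) and FOXA3 6 (80.8%). The 15 peaks of CTD-deleted FOXA2 around SOX2 were reached at 13.5% of genes and its 11 peaks around FOXA2 at 26.6%, where the median is 6. Its peak number at FOXA2 was thus above the median and that of full-length FOXA2, 2 (84.2%), below it.

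The design compares each factor with and without the CTD. Summed over the flanks of all 4 genes, the full-length FOXA1 list held 19 peaks and the CTD-deleted one 23, so that 54.8% of the pair's peaks were in the CTD-deleted list (exact 95% interval 38.7 to 70.2), against 57.4% genome-wide. With equal numbers of the strongest peaks the order was the opposite, 19 against 17. At the same IDR limit for both lists there were 4 against 23, or 85.2% after deletion against 81.4% genome-wide. Of the 18 full-length and 23 CTD-deleted sites, 14 were in both lists. FOXA2 had 19 and 31, or 62.0% (47.2 to 75.3) against 54.2% genome-wide. With equal numbers of the strongest peaks it had 19 and 27, or 58.7% against 50%. At the same IDR limit for both lists it had 10 and 31, or 75.6% against 62.9% genome-wide. Of its 19 and 31 sites in the full lists, 10 were in both. The genome-wide share of sites in both lists was not counted for either pair. FOXA3 had 1 and 2. SOX2 and the fusion had 0 flanking peaks in the combined lists, and 4 and 11 in those of the first replicate, or 73.3% against 75.3% over the whole lists. All these intervals cover counting error over peaks only and include the genome-wide share of the pair.

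Gene by gene, 6 of 16 combinations of pair and gene had no peak, and 1 of the others had an interval that did not include the genome-wide share. It was the FOXA2 pair at FOXA2, with 2 and 11 peaks, or 84.6% (54.6 to 98.1) after deletion, and it was singled out after the values were seen. Allowing the same IDR in both lists left the 2 and 11 peaks, with a genome-wide share of 62.9%, which lies inside the interval. At an IDR of at most 0.05 there were 0 and 3, where 90.4% of the peaks of both lists belong to the CTD-deleted one. At FOXA1 the FOXA2 pair ran the other way, with 5 and 1, or 16.7% (0.421 to 64.1), and at SOX2 it had 10 and 15, or 60.0% (38.7 to 78.9). The FOXA1 pair had 5 and 8 at FOXA1, 3 and 5 at FOXA2, 2 and 1 at FOXA3 and 9 and 9 at SOX2.

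Sites found in 4 or 5 lists held stronger peaks than the others, while sites in 1 list and in 2 or 3 lists differed little. The same medians were not computed over the genome. The 28 peaks at the 28 flanking sites found in 1 list exceeded a median of 31.3% of their list. The median was 35.1% for the 38 peaks at 15 sites in 2 or 3 lists and 84.8% for the 29 peaks at 7 sites in 4 or 5 lists. Median peak widths were 436, 599.5 and 725 bp in the same order. Of the 28 sites found in 1 list, 17 were in CTD-deleted FOXA2, 6 in CTD-deleted FOXA1, 4 in full-length FOXA2 and 1 in full-length FOXA1. The first 2 of these are the longest lists, with 53415 and 50539 peaks. The same split over the genome was not counted, so it is no feature of these loci. Recurrence was close to that over the genome, where 45.6% of 108696 merged sites were in 2 or more lists and 12.1% in 4 or more. Around the 4 genes these shares were 46.2% and 13.5% of 52 sites.

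For comparison, 20 genes known as partners or targets of these factors were examined for a peak over the gene. Among 9 genes of the endoderm programme, HNF4A, a nuclear receptor of liver and gut, had a peak in both FOXA1 and both FOXA2 lists and in the fusion list. Among 3 genes that act with FOXA1 in breast and prostate, ESR1, the oestrogen receptor gene with a span of 472948 bp, had a peak in 7 lists, all but that of SOX2. Of 8 genes bound by SOX2 in pluripotent or neural cells, 0 had a peak in the SOX2 or fusion list and 1, NANOG, had a peak in a FOXA list, that of full-length FOXA2 (named after its value was seen). In all, 5 of 20 genes had a peak in each FOXA1 list, 4 in full-length and 6 in CTD-deleted FOXA2, 1 and 2 in the FOXA3 lists, 0 in SOX2 and 3 in the fusion. That is 25% or less of the genes except in CTD-deleted FOXA2 (30%), below the share of protein-coding genes with a peak over the gene given above for both FOXA1 and both FOXA2 lists. The FOXA3 and SOX2 lists were also below theirs, and the fusion, at 15%, was above its 10.7%. The 20 genes span 1342 to 472948 bp and were not matched by length, and genes of up to 10 kb had lower shares in every list. The comparison therefore does not tell whether these genes carry fewer peaks than others of their length.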

How the data were processed

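Flag ChIP-seq peak lists of 8 groups were used. Per the submitters' processing notes, the tools were FastQC 0.10.1, Trim Galore, Bowtie2 2.4.4, SAMtools 0.1.18, MACS2 and deepTools 2.4.1, and the build was hg38; the control and the IDR limits are not given in the sources used here. The 8 combined lists have the 20-column layout of the IDR program, and the deposited columns used were the IDR score, the −log10 IDR, the −log10 p of each replicate and the summit. The 2 first-replicate lists hold the authors' fold enrichment (a ratio) and −log10 p and q. Of 14 lists, 4 were byte-for-byte copies and were not used. Fractions of genes are from RefSeq GRCh38.p14, with 19974 protein-coding genes on chromosomes 1 to 22 and X. Peaks were counted with Python 3.11.15, pandas 2.3.3, numpy 2.4.6 and scipy 1.17.1, and the counting was tested on simulated peaks. No test between replicates was possible with 1 list per group. A genome sequence and exon positions were not used here. The genes, lists and partner genes were chosen with earlier results of these data known. Sites were named by rule: all peaks over the genes, per gene the 3 flanking sites in most lists (ties by highest strength), the nearest on each side, and the strongest per list; a further site tied in list number is given at FOXA1 and at SOX2. Of the partner genes, those with a peak over the gene in 4 or more combined lists were named, except for items that are not reported here.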

Additional observations from a re-analysis of the deposited data

How the results depend on the processing

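Alternatives gave 67 values for 17 results: 40 kept within bounds and 27 did not. The bound was 1.5 times for counts of sites and lists, and the exact interval of the pair's share for differences. For shares of genes it was the Wilson score interval of the percentage, which is narrow over so many genes. With equal numbers of the strongest peaks the FOXA1 difference of 4 became -2, which turns its direction. The cause was not tested, except that stricter limits and shorter distances leave fewer peaks by construction. Within 100 kb there were 6 sites at FOXA1, 2 at FOXA3 and 13 at SOX2. At an IDR of at most 0.05 there were 6 at FOXA2, 2 at FOXA3 and 10 at SOX2, and at 0.01 there were 6 at FOXA1, 2 at FOXA2, 2 at FOXA3 and 6 at SOX2. A peak over SOX2 was then in 1 list at 0.05 and in 0 at 0.01; that over FOXA1 remained in 3 and 2 lists. Flanking peaks after CTD deletion minus full length became 19 (0.05) and 11 (0.01) for FOXA1 and 6 and 4 for FOXA2, and at FOXA2 alone 3 and 1. The stricter IDR limit of the pair, chosen after seeing the data, gave 19 for FOXA1 and 21 for FOXA2. The shares in the CTD-deleted list were then 85.2% against 81.4% genome-wide for FOXA1 and 75.6% against 62.9% for FOXA2. The full-length FOXA2 list has no peak at 0.01. The FOXA3 difference was 1 within 100 kb too, though from 0 and 1 peaks in place of 1 and 2, and was 2 without the shared peaks; for SOX2 and the fusion it was 7 in the first-replicate lists. With all annotated genes, 64.9%, 53.4%, 80.2% and 21.2% of genes had as many sites as FOXA1, FOXA2, FOXA3 and SOX2. The results at FOXA2 alone and the background over genes of up to 10 kb were also added after seeing the data. No paired analysis was possible because each group has 1 list made from both replicates; for the same reason no replicate could be left out, except through the first-replicate lists. Depth is unknown, so a peak missing from a list was not called there, which does not show that the site was unbound.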
